A study of Triticum aestivum with 96 samples.

Results

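The 100 wheat genes described here were picked because a 12 h wave in their transcript level was larger than their 24 h wave in both mature and senescent flag leaves. Candidates needed a mean scaled count of at least 50 in each stage, which 20577 of 139118 genes reached. In each stage, log2(scaled count + 2) was fitted on a linear trend over time, a 24 h cosine and sine, and a 12 h cosine and sine. The amplitude of a wave is the distance from its midline to its peak on that log2 scale. The 12 h amplitude exceeded the 24 h amplitude in 2917 genes in mature leaves, in 1984 in senescent leaves and in 533 in both. Of those 533, the 100 with the largest value of the smaller of their 12 h amplitudes were kept. All amplitudes below were therefore used to choose the genes and are a description.

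The libraries came from bread wheat (Triticum aestivum) of the cultivar Mace. Whole flag leaves, the last leaf below the ear, were taken from primary tillers of plants sown 28 days apart in a shared growth room. The mature group stood at ear emergence and the senescent group had visible chlorophyll loss in its flag leaves. Both groups grew in 12 h light and 12 h dark and were then moved at dawn, Zeitgeber time 0 (ZT0), to continuous light at 20 °C, under which 24 time points from ZT45 to ZT91, 2 h apart, were sampled in each stage. Each time point and stage has 2 libraries, each of RNA pooled from 2 leaves, which makes 48 libraries per stage and 96 in all. Stage and sowing batch coincide and cannot be told apart, and p-values rest on the scatter of these leaf pools around the fitted curves. In whole leaves, fewer cells of a type and less RNA per cell cannot be told apart either.

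The plant circadian clock is a set of transcription factors that repress one another in turn and keep a cycle of about 24 h in constant light. A transcript with a 12 h wave rises once by day and once by night. Such a wave can belong to a gene that peaks at both subjective dawn and subjective dusk, and it is also a mathematical component of any 24 h wave that is not a pure cosine. Each gene identifier carries its chromosome and thereby its place in the A, B or D genome of hexaploid wheat, but the files do not pair identifiers with gene names, so roles cannot be given.

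Libraries of mature leaves held an estimated 6909480 ± 952288 reads and those of senescent leaves 7160544 ± 1279977 (SD, n = 48 each), between 4789057 and 11831486 in all. A few libraries stood apart for these genes. Of the 100 genes, 45 had their lowest or highest mature value in replicate 1 of ZT91, as did 31.7% of the 20577 genes with a mean of at least 50. In senescent leaves, replicate 1 of ZT77 held the lowest or highest value of 22 members, against 9.65% of those genes.

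The genes are called 12 h members after the rule that chose them, and whether each carries a 12 h rhythm was not settled by these libraries. In all libraries of a stage, the 12 h component passed an adjusted p under 0.05 (limma, Benjamini-Hochberg over all tested genes) in 0 of the 100 in mature leaves and in 2 in senescent leaves. The background was 0.334% of 42218 tested genes in mature leaves and 1.23% of 41715 in senescent leaves, or 0.559% and 2.05% of the 20577 candidates. Without adjustment, 27 members in mature leaves and 41 in senescent leaves had a p under 0.05, and the smallest adjusted p was 0.0843 and 0.0292. Because the choice used these amplitudes, nothing is read from these counts.

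The 12 h waves were small. In mature leaves the 12 h amplitude of the members ran from 0.11 to 0.42 with a median of 0.17 log2 units, and in senescent leaves from 0.11 to 0.40 with a median of 0.16. A median member thus moved 1.26-fold from trough to peak in mature leaves and 1.25-fold in senescent leaves, and the member with the widest wave moved 1.80-fold and 1.74-fold. Over all 20577 candidate genes the median 12 h amplitude was 0.08 in mature and 0.07 in senescent leaves. The 24 h amplitude of the members had a median of 0.10 in mature and 0.09 in senescent leaves, below the 0.19 and 0.20 of all candidates.

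The scatter of single libraries around the fitted curve was wider than the wave. The residual SD of the members had a median of 0.46 log2 units in mature leaves, against 0.28 for all candidates. In senescent leaves it was 0.33, against 0.215 for all candidates. In 100 of 100 members, and in both stages, the 12 h amplitude was below the residual SD. The ratio of the amplitude to the standard error of a fitted coefficient had a median of 2.03 in mature and 2.29 in senescent leaves.

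**Figure D1:**
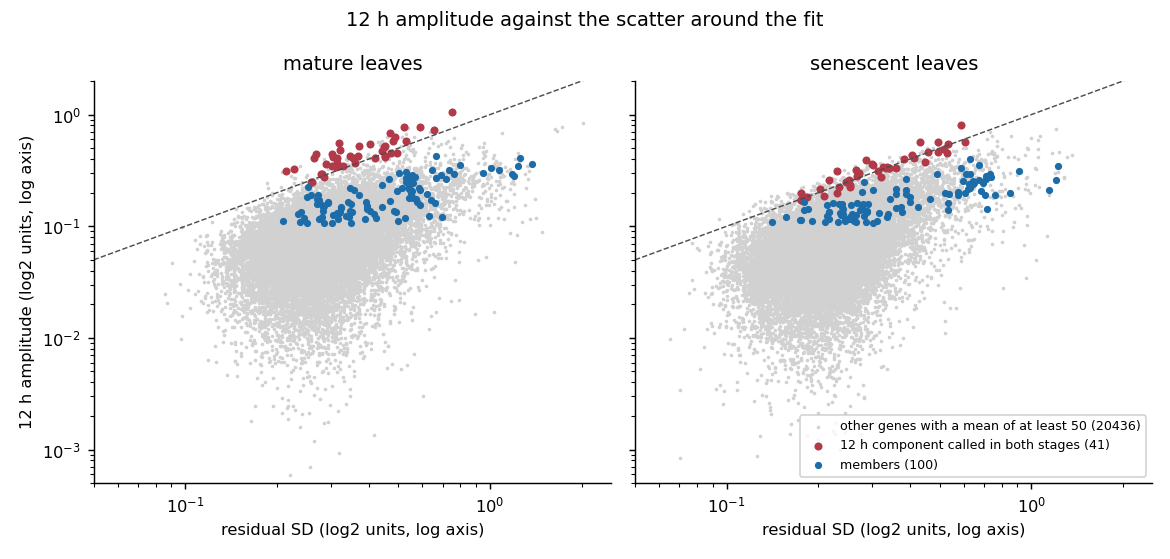
12 h amplitude (vertical axis, log2 units, log axis) against the residual SD around the fit (horizontal axis, log2 units, log axis) for the 20577 genes with a mean of at least 50, in mature and senescent leaves. The 100 members (blue) lie below the dashed line of equality in both panels, in a band of larger scatter, and the 41 genes with the 12 h component called in both stages (red) lie along the upper edge of the cloud.

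Genes whose 12 h component did pass the test in both stages were different ones. There were 48 of these among 39951 genes tested in both stages (0.12%), and 41 of them were among the 20577 candidates (0.199%). None of the 41 had a 12 h amplitude above its 24 h amplitude in both stages, and 0 were members. Their median 24 h amplitude was 1.48 log2 units in mature and 1.51 in senescent leaves. The smaller of their 12 h amplitudes ran from 0.17 to 0.81, with a median of 0.33. Their 12 h peak times differed between stages by a median of 1.03 h.

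The first member by rank was TraesMAC3B03G01763130 on chromosome 3B. In mature leaves its scaled count was 8.41 at the lowest, 118 at the median and 324 at the highest, and in senescent leaves 19.8, 56.1 and 331, so the stages overlapped over nearly their whole range. Its 12 h amplitude was 0.32 log2 units with a standard error of 0.22 in mature leaves and 0.40 with a standard error of 0.13 in senescent leaves. The fitted peaks fell at 6.44 h in mature leaves and 2.79 h in the senescent stage, counted from ZT0 in a repeating 12 h clock. The low mature value came from replicate 2 of ZT59, where replicate 1 of the same time point had 301.8. In senescent leaves the mean within 3 h of the fitted peak was above the mean at the other times in each half-day, with 131.3 against 73.3 from ZT45 to ZT55, 75.4 against 44.8 from ZT57 to ZT67, 58.8 against 43.7 from ZT69 to ZT79 and 69.2 against 50.02 from ZT81 to ZT91 (6 libraries in each mean). The peak was fitted to these same libraries, so such half-day values are a description, here and for the genes below.

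The second was TraesMAC7D03G04304800 on chromosome 7D. Its scaled count ran from 58.9 through a median of 1137 to 2111 in mature leaves, and from 51.01 through 415.3 to 1065 in senescent leaves. The 12 h amplitude was 0.32 in mature and 0.31 in senescent leaves, but the fitted peak lay at 1.21 h in mature leaves and moved to 8.45 h in senescent ones. Single libraries set both extremes. The lowest mature value was replicate 1 of ZT91, a 3.74 log2 gap to replicate 2, and the lowest senescent value was replicate 1 of ZT85, a 3.72 log2 gap to its partner. The mean around the fitted peak was the higher one in 3 of 4 half-days in each stage.

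The best ranked members of the other peak times also had single libraries far from their partner. TraesMAC3D03G01904400 (chromosome 3D, rank 8) ran from 13.1 through 444.1 to 926.2 in mature leaves and from 3.04 through 69.3 to 547 in senescent leaves. Its 12 h peak fell at 5.69 h in mature leaves and at 2.28 h in senescent ones, and its lowest mature value was again replicate 2 of ZT59. TraesMAC2B03G00841240 (chromosome 2B, rank 31) ran from 31.1 through 70.5 to 445.8 in mature and from 21.1 through 67.1 to 1217 in senescent leaves, with peaks at 11.3 h and 10.8 h. Its highest senescent value, in replicate 1 of ZT45, lay 3.70 log2 units above replicate 2 of that time point.

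The members called for the 12 h component in senescent leaves were TraesMAC5A03G02765310 and TraesMAC7D03G04359130, singled out after their values were seen. TraesMAC5A03G02765310 (chromosome 5A, rank 40) had scaled counts from 67.4 through 133.4 to 203.5 in mature and from 161.1 through 228.2 to 347.3 in senescent leaves. Its 12 h peak fell at 1.78 h in mature leaves and at 2.28 h in senescent ones, with amplitudes of 0.22 and 0.16 log2 units. The limma adjusted p, a description here, was 0.0843 in mature and 0.0302 in senescent leaves. The mean around the peak exceeded that of the other times in each half-day of both stages, for example 149.2 against 112.1 in mature and 261.3 against 214.1 in senescent leaves from ZT81 to ZT91.

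TraesMAC7D03G04359130 (chromosome 7D, rank 99) had scaled counts from 53.7 through 110.9 to 208.8 in mature and from 91.3 through 150.3 to 280.6 in senescent leaves. Its 12 h peak fell at 11.2 h in both stages, and at 11.02 h and 11.3 h in the separate replicate numbers of senescent leaves. The amplitude was 0.11 in mature and 0.25 in senescent leaves, and the limma adjusted p, again a description, was 0.877 and 0.0292. Its senescent replicates lay close together, with a median gap of 0.17 log2 units. Neither gene passed in senescent leaves when only 1 replicate number was fitted, with 24 libraries in place of 48. The amplitudes were then 0.24 in replicate 1 and 0.27 in replicate 2 for TraesMAC7D03G04359130, and 0.17 and 0.18 for TraesMAC5A03G02765310. Both replicate numbers took part in the choice, so these amplitudes are a description.

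**Figure D2:**
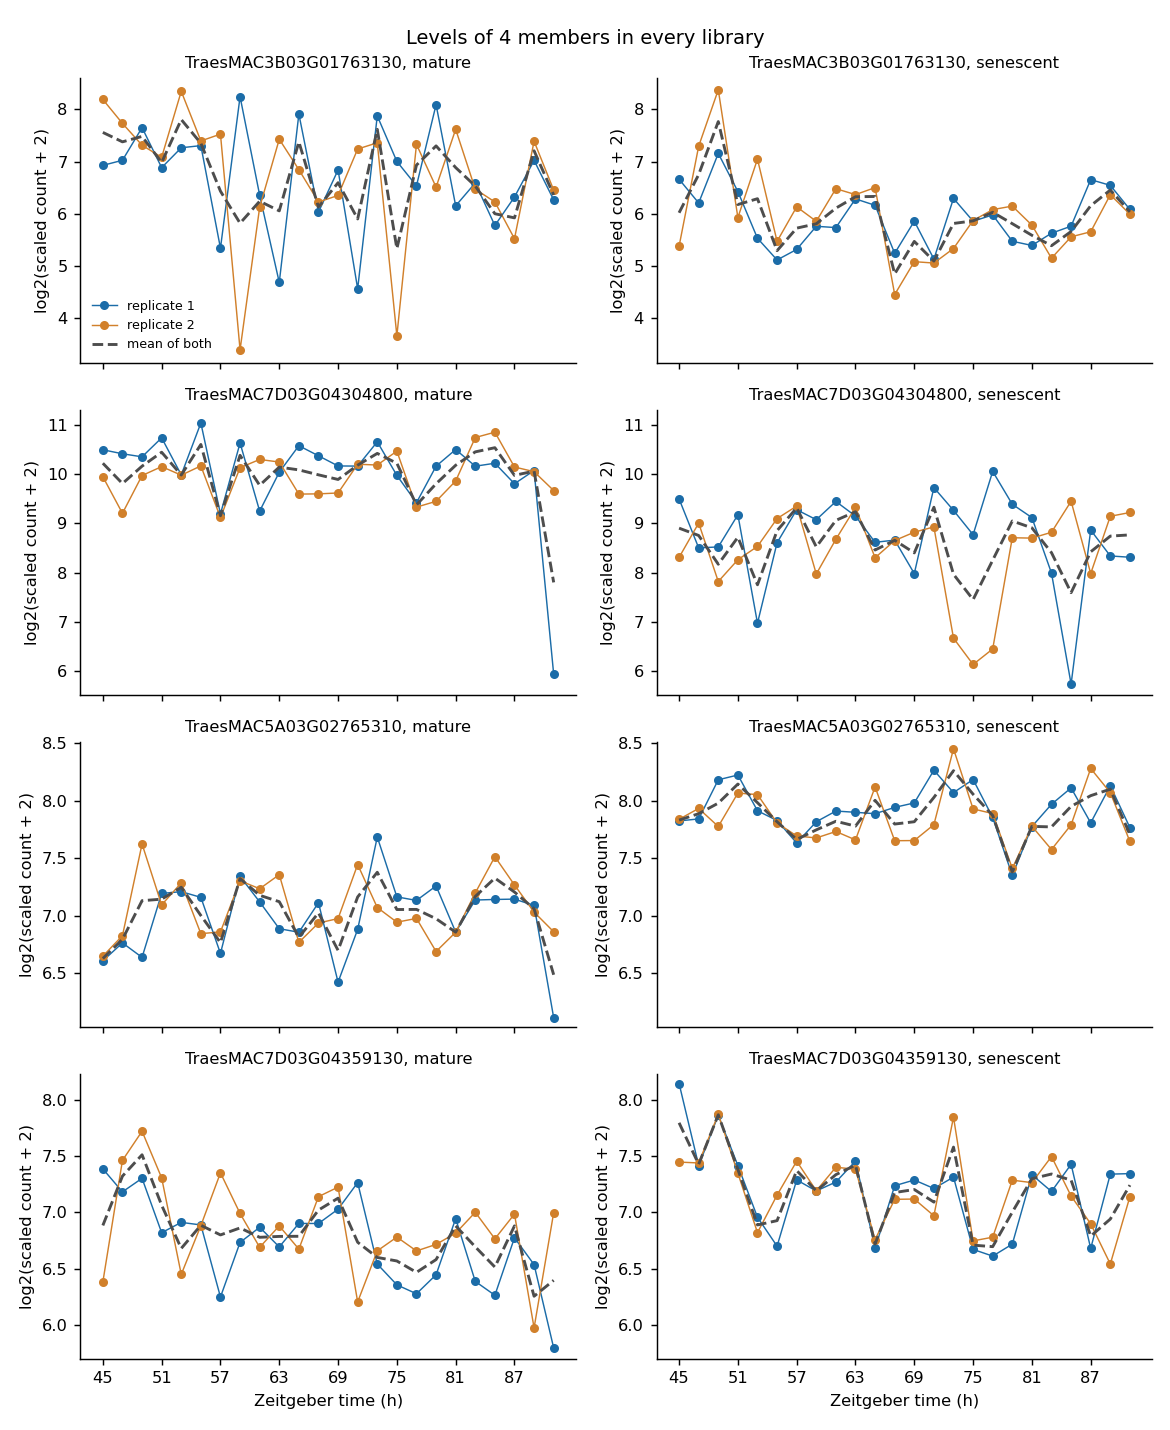
Log2(scaled count + 2) of 4 members in every library against Zeitgeber time in hours, in mature (left) and senescent leaves (right), with replicate 1 in blue, replicate 2 in orange and the mean of both dashed. In the upper 2 genes single libraries fall far below their partner (8.41 against 301.8 at ZT59 in mature leaves). The senescent replicates correlated over time points at 0.483, -0.356, 0.396 and 0.595, from the top gene to the bottom one.

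At the threshold, the last members were TraesMAC7D03G04359130 and TraesMAC2D03G01153800, with a smaller 12 h amplitude of 0.1071 and 0.1060. The first genes outside it were TraesMAC7D03G04488660 and TraesMAC3B03G01595300, with 0.1055 and 0.1053. Members and non-members at this boundary thus differed in the fourth decimal. In mature leaves TraesMAC2D03G01153800 ran from 64.1 through 102.4 to 156.8 and TraesMAC7D03G04488660 from 94.3 through 125.1 to 228.4 scaled counts, which overlap.

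Peak times clustered, and in different hours in each stage. In mature leaves 52 members peaked from 0 to 3 h, 10 from 3 to 6 h, 19 from 6 to 9 h and 19 from 9 to 12 h. The counts in senescent leaves were 24, 16, 31 and 29. The fullest hour was 0 to 1 h in mature leaves, with 23 members, and 8 to 9 h in senescent leaves, with 21. The 12 h peak was earlier in senescent leaves in 70 of 100 members, with a median difference of -2.56 h. Members of the co-varying sets described below are not independent counts, here or in the next paragraph. Sets 1, 2 and 3, of 24, 11 and 7 members, had median differences of -4.37, -3.76 and -3.55 h. Those of sets 4 and 5, of 3 members each, were -0.781 and 4.61 h. The mean peaks of set 1, 0.963 h and 8.66 h, lay in the fullest hours. No such counts were made over all candidates, and the part of shared library movement was not tested.

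Between stages the peak times of a member mostly disagreed. The absolute difference had a median of 3.56 h, where 6 h is the largest that a 12 h wave allows, and the median over all 20577 candidate genes was 2.61 h. It was within 1 h in 22 members, above 3 h in 59 and above 5 h in 9. The largest differences were those of TraesMAC5B03G02810450, with peaks at 2.28 h in mature leaves and at 8.64 h in senescent ones, and of TraesMAC3D03G01896360, with peaks at 3.90 h and 9.46 h. TraesMAC5B03G02810450 ran from 222.2 through 542.8 to 717.5 scaled counts in mature and from 102.0 through 272.1 to 463.6 in senescent leaves. TraesMAC3D03G01896360 ran from 218.3 through 617.2 to 1136 and from 245.3 through 512.3 to 765.2. The test of the 12 h component between stages, which reads amplitude and peak time together, passed in 0 members (smallest adjusted p 0.387 in limma). It passed in 0 of 42428 tested genes (0%). An unadjusted p under 0.05 was found in 38 members and in 3053 tested genes (7.2%). The rule chose members for large 12 h amplitudes in both stages, which this test also reads. The 38 are therefore a description, and nothing is read from them.

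**Figure D3:**
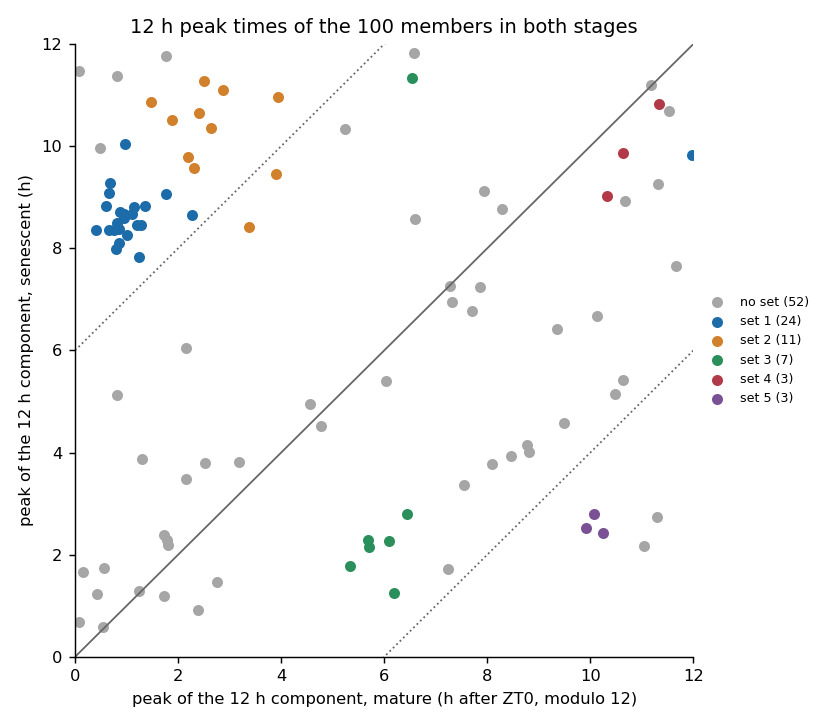
Peak time of the 12 h component in senescent leaves (vertical axis, h) against mature leaves (horizontal axis, h), each modulo 12 h, for the 100 members, coloured by the co-varying set each belongs to. The solid line marks equal times and the dotted lines a shift of 6 h, the largest possible, and the 24 members of set 1 average 0.963 h in mature leaves and 8.66 h in senescent ones.

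The fitted peak times of the replicate numbers lay closer together than those of the stages, an order that the rule favours. It ranks by the 12 h amplitude over both replicates of a stage, which is larger where their waves coincide. Between stages it sets no condition on peak time. Fitted separately, the replicate numbers differed by a median of 1.35 h in mature leaves, with 36 members within 1 h and 11 more than 3 h apart. For senescent leaves the median was 1.00 h, with 50 within 1 h and 11 more than 3 h apart. The cycles ZT45 to ZT67 and ZT69 to ZT91 differed by a median of 2.03 h in mature leaves and 1.51 h in senescent leaves, with 24 and 32 members within 1 h. The level around the fitted peak was the higher one in 4 of 4 half-days for 51 members in mature and 65 in senescent leaves, in 3 for 44 and 29, and in 2 for 5 and 6. The peaks were fitted to these same libraries, so a higher level around them is largely built in. These counts were not made over all candidates, and nothing is read from them.

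Agreement was also counted over stages, replicate numbers and cycles together. Peak times lay within 1 h between stages and between replicate numbers in both stages for 8 members. None of the 100 also agreed within 1 h between the cycles of both stages. TraesMAC7D03G04359130 was among the 8 members that agreed between stages and replicate numbers. These counts were not made over all candidates, and the rule favours agreement between replicate numbers, so nothing is read from them.

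The replicates of a time point moved together less in the members than over all candidate genes, which were not matched to the members on level or scatter. Over the 24 time points, the correlation of log2 values between replicates had a median of 0.05 in mature members (range -0.49 to 0.60) and of 0.27 over all candidates. It was below 0 in 43 members and over 0.5 in 5. In senescent leaves the median was 0.23 (range -0.41 to 0.69) against 0.47 over all candidates, with 31 members below 0 and 10 over 0.5. These correlations also carry the drift and the 24 h wave, and the rule kept genes in which the 24 h wave is the smaller one. The points share libraries.

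To ask whether the 12 h wave was present in libraries that had no part in the choice, the rule was applied to one portion of the libraries and the chosen 100 genes were tested in the rest. Chosen in replicate 1 of both stages and tested in replicate 2, 0 of 100 genes passed limma's adjusted p under 0.05 in both stages, against 0 of 39894 tested genes (0%). An unadjusted p under 0.05 in both was found in 3, against 1.18% of tested genes and 1.66% of the candidates. Chosen in replicate 2 and tested in replicate 1, 0 passed, against 0 of 39882 (0%), and 2 had an unadjusted p under 0.05, against 0.522% and 0.709%. Since no gene of the whole table passed, the counts of 0 say nothing about the chosen genes. The 12 h amplitude again exceeded the 24 h amplitude in both stages in 13 and 9 of the 100 genes, against 5.19% and 3.41% of the candidate genes in the same libraries.

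Across stages and cycles the backgrounds were also low, so that few or none of 100 genes would be called at those rates. Of 100 genes chosen in mature leaves, 0 passed in senescent leaves, against a background of 1.23%, with 22 at an unadjusted p under 0.05, against 13.2% of all tested genes and 17% of the candidates. Of 100 chosen in senescent leaves, 0 passed in mature leaves, against 0.334%, with 12 at an unadjusted p under 0.05, against 7.32% and 8.24%. Of those chosen from ZT45 to ZT67, 0 passed from ZT69 to ZT91 (background 0.0126%). Here 3 had an unadjusted p under 0.05, against 1.17% of all tested genes and 1.66% of the candidates. In the opposite direction 0 passed (background 0.005%), and 5 had an unadjusted p under 0.05, against 1.93% and 2.76%.

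The 12 h wave was again the larger one in 25 genes chosen in mature and tested in senescent leaves, against 9.64% of the candidates, and in 34 in the opposite direction, against 14.2%. Across cycles it was so in 10 and 14 genes, against 4.62% and 4.06%. In each of the 6 choices the share of chosen genes was above that of the candidates, and it ranged from 9 to 34 of 100 genes. The choice also favours genes with a small 24 h wave, and the part of this in the shares was not tested.

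In each choice the median 12 h amplitude was smaller where the genes had not been chosen. It was 0.18 where chosen and 0.11 where tested from replicate 1 to 2, 0.30 and 0.15 from replicate 2 to 1, 0.31 and 0.18 from mature to senescent leaves and 0.24 and 0.17 from senescent to mature leaves. Between cycles it was 0.27 and 0.16, then 0.24 and 0.15. Peak times moved by a median of 2.51 h and 2.11 h between replicates, 3.80 h and 3.89 h between stages, and 2.21 h and 2.30 h between cycles. With 24 libraries in each fit between replicates or cycles and 48 between stages, a wave of this size may not be detectable, so the counts of 0 do not show that it is absent. Over all candidates the median 12 h amplitude in the tested libraries was 0.10 and 0.09 between replicates, 0.07 and 0.08 between stages, and 0.09 and 0.10 between cycles. The candidates were not matched to the chosen genes on level or scatter, and the part of scatter in the larger amplitudes of the chosen genes was not tested.

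**Figure D4:**
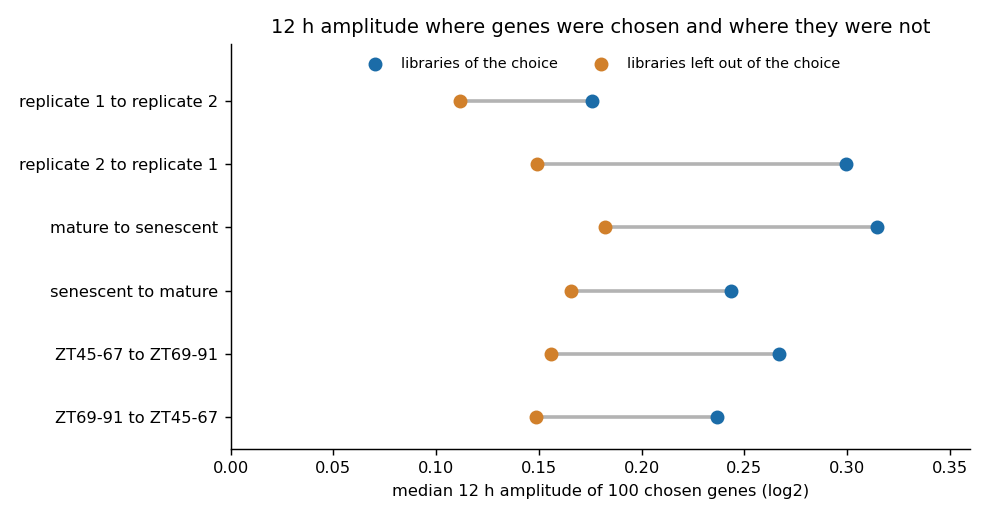
Median 12 h amplitude (log2 units) of 100 genes chosen in 1 portion of the libraries, in the libraries of the choice (blue) and in those left out of it (orange), for 6 choices. The orange point lies to the left of the blue one in each line, for example 0.15 against 0.30 from replicate 2 to replicate 1.

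Many members varied together from library to library. Average linkage on the correlations of both stages, with a distance limit of 0.5, put 48 of the 100 members into 5 sets of 3 or more, while the median correlation between any pair of members was 0.05 in mature and 0.04 in senescent leaves. The sets were formed from these same values and are described without a test. Their score in a library is the mean log2 deviation of their genes from their stage mean.

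Set 1 held 24 members, 13 of them among the first 20 by rank, spread over 1B, 2A, 2B, 2D, 3A, 3D, 4B, 5B, 5D, 6B, 6D, 7A, 7B and 7D. Its median pairwise correlation over 48 libraries was 0.80 in mature and 0.82 in senescent leaves. The mean 12 h peak was at 0.963 h in mature leaves (SD 0.449 h over genes) and 8.66 h in senescent leaves (SD 0.519 h). Genes grouped for correlating over these libraries get similar fitted peaks from them. The small SDs, here and in set 2 below, are therefore largely built in. Between the replicates of a time point, however, the scores correlated at 0.0325 in mature and -0.275 in senescent leaves over 24 time points. At ZT77 in senescent leaves the score was 1.27 in replicate 1, the highest of the stage, and -1.16 in replicate 2, among the lowest. The lowest mature score, -1.60, was replicate 1 of ZT91, and the lowest senescent score, -1.24, was replicate 1 of ZT85. The score's correlation with log2 estimated reads was -0.264 in mature and -0.143 in senescent leaves over 48 libraries, and the part of depth in the movement was not tested.

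The member with the highest mean FPKM, TraesMAC2D03G01098570 on chromosome 2D, belonged to set 1. FPKM counts fragments per length of transcript and library size, and its mean over all libraries was 512, within a range over the members from 1.34 (TraesMAC5D03G03068720) to 512 and a median of 10.8. Its scaled counts ran from 198.9 through 2470 to 4644 in mature and from 238 through 926.5 to 2463 in senescent leaves. The extremes fell in the libraries that set the extremes of the set, replicate 1 of ZT91 and of ZT55 in mature leaves and replicate 1 of ZT85 and of ZT77 in senescent leaves. TraesMAC5D03G03068720, at the other end, ran from 33.4 through 54.96 to 115.8 in mature and from 32.4 through 50.2 to 75.1 in senescent leaves and belonged to no set.

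Set 2 held 11 members with peaks at 2.68 h in mature leaves (SD 0.784 h) and 10.3 h in senescent leaves (SD 0.872 h). Here the replicates disagreed in mature leaves, with a score correlation of -0.0514, and moved together in senescent leaves, with 0.626. The senescent score was highest, at 0.775, in replicate 2 of ZT47 and lowest, at -1.25, in replicate 2 of ZT87. The lowest mature score was -1.49 in replicate 2 of ZT45.

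Set 3 held 7 members, among them the first by rank and TraesMAC3D03G01904400, on 2A, 3B, 3D and 5D. Their residual SD in mature leaves had a median of 1.20 log2 units. The score in mature leaves was -4.26 in replicate 2 of ZT59, -3.44 in replicate 2 of ZT75 and -2.71 in replicate 1 of ZT71, with a next lowest of -1.10. At ZT59 and ZT71 the partner library was among the 4 highest of the stage, with 1.08 and 1.31. The correlation between replicate scores was -0.431 in mature and 0.455 in senescent leaves. In senescent leaves the lowest score was -2.28 in replicate 2 of ZT67 and the highest 2.12 in replicate 2 of ZT49.

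Sets 4 and 5 held 3 members each. Set 4 peaked at 10.8 h in mature leaves and at 9.90 h in senescent ones, the smallest shift of the 5 sets, and its replicate scores correlated at 0.604 and 0.308. Its scores were highest at the start of sampling, 2.52 in replicate 2 of ZT49 in mature and 3.27 in replicate 1 of ZT45 in senescent leaves. Set 5 peaked at 10.1 h and 2.58 h, with replicate correlations of -0.324 and 0.156.

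**Figure D5:**
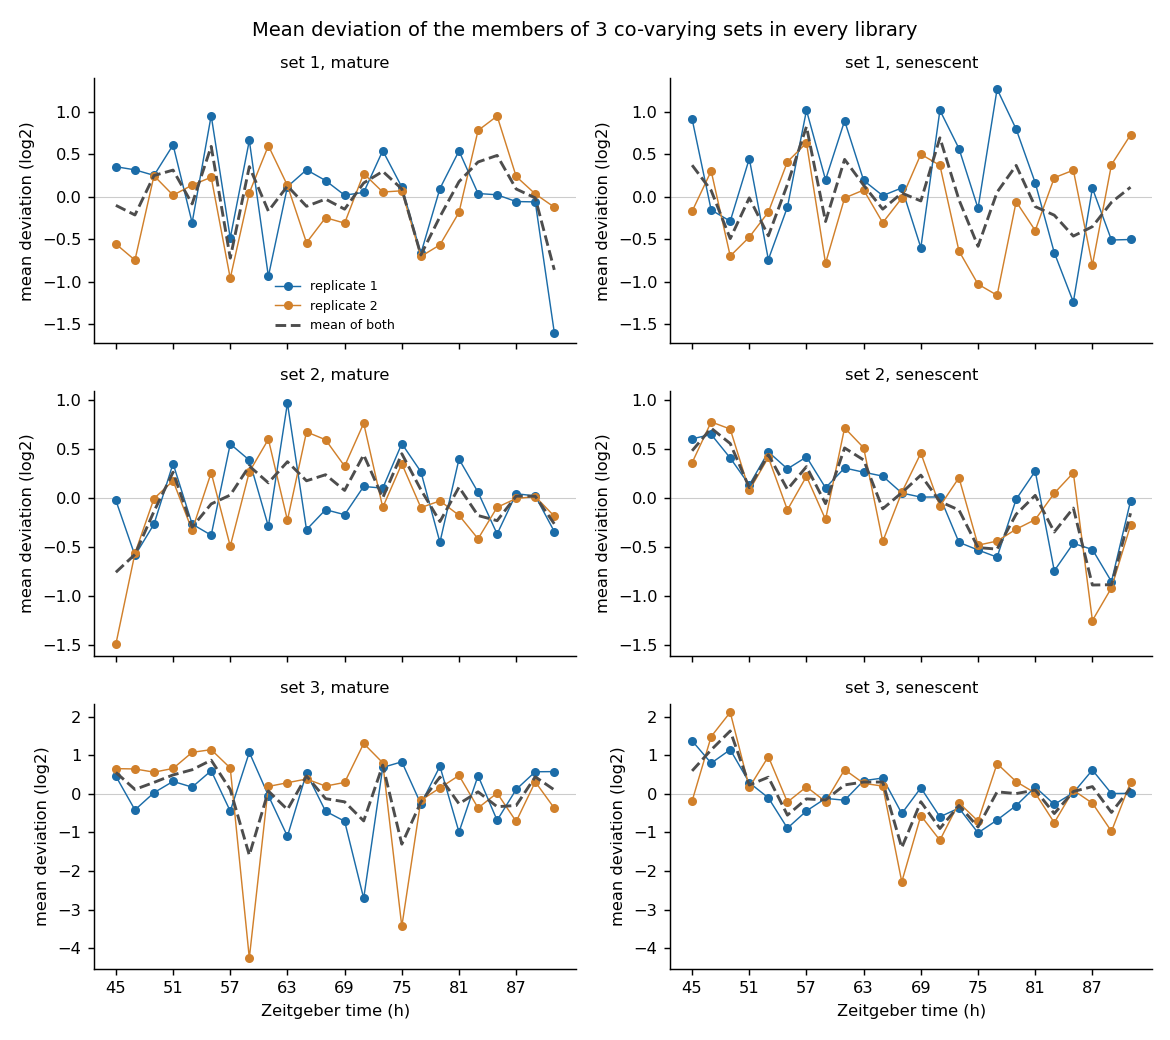
Score of sets 1, 2 and 3 (mean log2 deviation of their members from the stage mean) in every library against Zeitgeber time in hours, with replicate 1 in blue, replicate 2 in orange and their mean dashed. In set 1 the replicates part at many time points, such as 1.27 and -1.16 at ZT77 in senescent leaves, and in set 3 the mature libraries at -4.26, -3.44 and -2.71 stand below the rest.

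Without replicate 2 of ZT59, replicate 1 of ZT71, replicate 2 of ZT75 and replicate 1 of ZT91 in mature leaves, an alternative chosen after seeing the data, the rule chose 69 of the 100 members again. The 12 h component in mature leaves then passed in 0 members, as with all libraries, and the median difference in peak time between stages was 3.38 h. Without replicate 1 of ZT77 in senescent leaves, also chosen after seeing the data, the rule chose 90 of the 100 again. The same 12 h test then passed in 2 members in senescent leaves, and the median peak difference was 3.41 h. Applied to a single replicate number of both stages, the rule chose 30 of the 100 again without replicate 1 and 17 without replicate 2.

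A pair of neighbouring identifiers occurred in set 1 and another in set 3. TraesMAC4B03G02296570 and TraesMAC4B03G02296580 on chromosome 4B correlated at 0.946 over the 48 libraries of each stage. TraesMAC5D03G03210030 and TraesMAC5D03G03210040 on chromosome 5D correlated at 0.951 in mature and 0.881 in senescent leaves. In mature leaves TraesMAC5D03G03210030 ran from 0 through 61.4 to 214.3 scaled counts and TraesMAC5D03G03210040 from 0 through 100.4 to 252.3, and both were at 0 in replicate 2 of ZT59 and highest in replicate 2 of ZT71. Whether reads could be split between such neighbours, or between copies of a gene on the A, B and D subgenomes, depends on counting steps not given in the sources used here, so their separate values are uncertain.

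The members were spread over all 21 chromosomes, from 1 on 7A to 7 each on 1B, 2D and 5D. The A, B and D subgenomes held 31, 34 and 35 members, and 33.6%, 33.2% and 33.3% of the candidate genes.

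The mean level over all times was not used by the rule beyond its minimum and was tested between stages. Of the 100 members, 77 differed at an adjusted p under 0.05 in limma, 32 of them higher and 45 lower in senescent leaves. Among all 42428 tested genes 70% differed, 35.3% higher and 34.7% lower, and among genes with a mean of at least 50 it was 75.2%, with 38.1% higher and 37.1% lower, so the share of members was near the background. The median log2 fold change was -0.13 over members and 0.01 over all tested genes. When libraries were scaled to an equal total, that of all tested genes became 0.24, and 47 members were higher and 32 lower, with a median of 0.11. Relative to all tested genes the median of the members thus stayed lower under both scalings. The log2 fold change reached 1 in either direction in 23 members and in 6.03% of genes with a mean of at least 50.

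The largest fall was that of TraesMAC1B03G00276490 on chromosome 1B, a member of set 2. Its scaled count ran from 2182 through 4825 to 11210 in mature leaves and from 2.13 through 38.7 to 622 in senescent leaves. The highest senescent library was below the lowest mature one. The log2 fold change was -6.83 with a standard error of 0.18 (limma adjusted p = 8.166e-55), and no other gene with a mean of at least 50 in both stages fell further. TraesMAC3D03G01962210 on chromosome 3D, also of set 2, ran from 384.4 through 963 to 2090 in mature and from 126.1 through 266.4 to 431.5 in senescent leaves, so that the groups overlapped only at their ends. Its log2 fold change was -1.95 with a standard error of 0.086 (limma adjusted p = 6.12e-38).

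The members with the smallest p among those that rose were TraesMAC5A03G02765310 and TraesMAC2D03G01266960. The values of TraesMAC5A03G02765310, given above, overlapped between the highest mature and the lowest senescent libraries, and its log2 fold change was 0.86 with a standard error of 0.045 (limma adjusted p = 2.225e-32). TraesMAC2D03G01266960 on chromosome 2D ran from 29.2 through 73.5 to 108.5 in mature and from 71.5 through 160.1 to 216.4 in senescent leaves. Its log2 fold change was 1.06 with a standard error of 0.067 (limma adjusted p = 6.581e-27). By set, 16 members of set 1 were lower and 2 higher in senescent leaves, 10 of set 2 were lower and 1 higher, and 3 of set 3 were lower and 4 higher. With equal library totals these counts were 14 and 3, 9 and 1, and 3 and 4. Without that scaling, 37.1% of genes with a mean of at least 50 were lower and 38.1% higher. The sets were formed from genes that vary together in these libraries. Their calls are therefore not independent of one another, and nothing is read from the counts by set.

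The linear trend over sampling, called drift and given as the log2 change over 48 h, was fitted but not used by the rule. In mature leaves the drift of 6 members passed limma's adjusted p under 0.05, against 4.13% of all tested genes and 5.11% of genes with a mean of at least 50. It was upward in 2 members (background 1.46% and 1.71%) and downward in 4 (2.67% and 3.4%). TraesMAC2B03G00841240, whose values are given above, fell by 1.70 with a standard error of 0.33 (limma adjusted p = 0.00108). TraesMAC1B03G00391000 ran from 66.3 through 137.3 to 1057 in mature leaves and fell by 1.44 with a standard error of 0.35 (limma adjusted p = 0.00921). Both belonged to set 4 and were highest in mature leaves in replicate 2 of ZT49. TraesMAC2A03G00802580 ran from 41.9 through 190.8 to 373 and rose by 1.34 with a standard error of 0.28 (limma adjusted p = 0.00307). TraesMAC1A03G00095520 ran from 31.8 through 84.5 to 194.7 and rose by 0.93 with a standard error of 0.22 (limma adjusted p = 0.0097). Its highest value was in replicate 1 of ZT91, and without the 4 mature libraries named above its rise was 0.85 (limma adjusted p = 0.0274). With 1 replicate number per time point, and so 24 libraries in place of 48, the count of 6 became 0 without replicate 1 and 1 without replicate 2. The estimates of the 4 named genes kept their direction. Without replicate 1 and without replicate 2 they were -1.54 and -1.86 for TraesMAC2B03G00841240 and -1.64 and -1.25 for TraesMAC1B03G00391000. For TraesMAC2A03G00802580 they were 1.46 and 1.22, and for TraesMAC1A03G00095520 0.83 and 1.02.

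In senescent leaves the drift of 19 members passed, against 16.2% of all tested genes and 23.4% of genes with a mean of at least 50. It was upward in 4 members (background 5.58% and 7.11%) and downward in 15 (10.7% and 16.3%). TraesMAC3D03G01950470 ran from 30.1 through 80.5 to 141.8 in senescent leaves and fell by 1.16 with a standard error of 0.20 (limma adjusted p = 2.876e-05). TraesMAC3D03G01896360 fell by 0.85 with a standard error of 0.15 (limma adjusted p = 3.556e-05). Both belonged to set 2. TraesMAC3B03G01790750 ran from 75.9 through 140.4 to 228.6 and rose by 0.56 with a standard error of 0.16 (limma adjusted p = 0.010). TraesMAC2A03G00763600 ran from 12.1 through 57.9 to 77.7, with its lowest value in replicate 1 of ZT45, and rose by 0.64 with a standard error of 0.20 (limma adjusted p = 0.0202). The count of 19 became 8 without replicate 1 and 11 without replicate 2, again with 24 libraries. The estimates were then 0.49 and 0.64 for TraesMAC3B03G01790750 and 0.56 and 0.71 for TraesMAC2A03G00763600, and neither passed. Those of TraesMAC3D03G01950470 were -0.99 and -1.32 and those of TraesMAC3D03G01896360 -0.79 and -0.92, and both passed in either fit. Drift differed between stages in 5 members, all of set 2, against 1.12% of all tested genes and 1.76% of genes with a mean of at least 50. The genes of set 2 were grouped because they varied together across these libraries, drift included. The 5 calls are therefore not independent of one another.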

How the data were processed

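RNA-seq libraries of mature and senescent flag leaves were compared from the tables the authors deposited. The submitters' processing notes name bcl2fastq 2.17, STAR, Cufflinks and Cuffnorm; genome build, annotation and counting settings are not given in the sources used here. The deposited count table is a scaled signal. Nearly all values of a library (99.96% or more) are whole multiples (tolerance 0.05) of a library-specific step between 0.516 and 1.43, and reads were estimated from the column sum and this step. FPKM values, as deposited, served as an alternative and for levels between genes. Of 139118 identifiers, 0 were found in the RefSeq gene table. The 2 tables of senescent libraries repeat the full ones with 0 differing values.

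Fits used limma 3.58.1 in R 4.3.3, with a variance trend, on log2(scaled count + 2), which understates changes of low genes. Genes needed a mean of at least 10 in the libraries fitted. Adjusted p-values are Benjamini-Hochberg over all of them, with a threshold of 0.05. Peak times in 1 replicate number used its 24 libraries per stage, and those in 1 cycle were fitted without the linear term. The fits were tested on simulated libraries. The members and the rule for named genes (first by rank and by peak time, at the threshold, smallest p by direction, largest peak shift, FPKM extremes, neighbouring identifiers) were chosen with earlier results of these data known. Alternatives were other pseudocounts, FPKM, scalings, filters, periods, time terms, replicates and time points.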

Additional observations from a re-analysis of the deposited data

Results flagged for a closer look

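Drift over the 48 h of sampling differed between the stages in 5 members, which were picked out because the test of the difference itself passed in limma after Benjamini-Hochberg adjustment. All 5 belong to set 2, whose genes varied together across the same libraries, so they are not independent results. The median pairwise correlation in the set was 0.7 in mature and 0.725 in senescent leaves. Its lowest mature score, -1.49, was in replicate 2 of ZT45, the first time point, with a next lowest of -0.587. TraesMAC3D03G01950470 changed by 0.55 ± 0.26 log2 units (estimate ± SE) in mature leaves and by -1.16 ± 0.20 in senescent leaves (adjusted p of the difference 0.005796). TraesMAC1B03G00276490, whose level fell furthest among genes with a mean of at least 50 in both stages, changed by -0.30 ± 0.27 and by -3.51 ± 0.62 (0.0108). Its senescent scaled counts were low, with a median of 38.7 and a lowest value of 2.13. The highest, 621.7, was in replicate 1 of ZT45, the first time point, where replicate 2 had 37.2. TraesMAC3D03G01896360 changed by 0.34 ± 0.22 and by -0.85 ± 0.15 (0.01564). TraesMAC4D03G02421430 changed by 0.58 ± 0.31 and by -0.74 ± 0.15 (0.0372), and TraesMAC5B03G02964950 by 0.20 ± 0.28 and by -1.15 ± 0.22 (0.04157). In mature leaves the drift of none of the 5 passed the adjusted test, with 0.265 as the smallest adjusted p in limma, and in senescent leaves it passed in each.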

How the results depend on the processing

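Membership depended on the settings. Of the 100 members, the rule chose 41 again with equal library totals, 57 without ZT45 and ZT91, 52 with no linear term, 50 with periods of 11 h and 22 h, 44 with 13 h and 26 h, 12 from ZT45 to ZT67 alone, 33 from ZT69 to ZT91 alone, 22 with a minimum mean of 10 and 16 with a minimum of 200. Without replicate 1 or 2 it chose 30 or 17, leaving out 1 time point 57 (ZT71) to 83, and without replicate 1 of senescent ZT77 90. The median peak difference between stages, 3.56 h, was 2.883 h with 11 h and 22 h, 2.708 h from ZT69 to ZT91 alone, 2.613 h at the lowest without a replicate number, and 3.179 to 4.089 h without 1 time point. Mature drift was called in 0 or 1 members and senescent drift in 8 or 11 without a replicate number; without 1 time point the counts were 4 to 8 and 14 to 24 (lowest without ZT45 for both). Without ZT45 the drift of TraesMAC1B03G00391000 in mature leaves (adjusted p 0.0755 in limma) and of TraesMAC2A03G00763600 in senescent leaves (0.131) no longer passed, nor the latter without ZT71 (0.0555). The 2 members called for 12 h in senescent leaves became 0 without either replicate number, settings chosen after seeing the data. Of the genes chosen in mature leaves, 1 passed in senescent leaves with equal library totals; the other 5 choices stayed at 0 with it. The cause of these changes was not tested, except that fewer libraries entered the fits that left some out. The level was called in 67 to 81 members under each alternative run. Replicate numbers shared only a number: the deviations of equally numbered mature and senescent libraries correlated at -0.2 to 0.130, over 0.1 at 3 of 24 time points. With the replicate block, 78 members were called for level, 6 and 19 for drift, and the rule chose the same 100. The test on whole reads was not run, since a few values are fractional.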
